A study of Mus musculus with 8 samples.

Results

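Adgrf1 and Gprc5b are a pair of genes for 7-transmembrane receptors that stood far apart between WT and miR-33 HKO livers, in opposite directions. They are 2 of the 17810 genes in the deposited gene table and were picked because their measured values differed widely between the genotypes, so their own differences are given here as a description, with no test. RNA-Seq was performed on 4 WT and 4 HKO male mice, with 1 library per liver. HKO mice carry loxP-flanked miR-33 alleles and a Cre recombinase driven by the albumin promoter, which deletes miR-33 in hepatocytes, and whether this Cre also acts in cholangiocytes was left unsettled by the study. The WT mice were their littermates. All 8 mice ate chow to 8 weeks of age and then, for 3 months, a high-fat diet without added choline (CD-HFD), the stage of simple steatosis, and were 5 months old. Both genotypes therefore received the diet, and no liver of a mouse kept on chow is compared here. The level of miR-33 itself was not analysed here, and the genotypes rest on the labels.

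Adgrf1, also known as GPR110, is an adhesion G protein-coupled receptor. Receptors of this class have a long extracellular part that cuts itself, and the freed stalk can switch the receptor on. Adgrf1 can also respond to synaptamide, the ethanolamide of docosahexaenoic acid, and signals through Gs, adenylyl cyclase and cAMP. In mouse liver it has been linked to the fatty acid desaturase Scd1. Gprc5b belongs to the retinoic acid-inducible receptors of class C, whose ligands are not settled. It lies in lipid rafts, where it binds the Src-family kinase Fyn, and in fat tissue it has been tied to inflammatory signalling and insulin resistance. A microRNA acts on an mRNA mainly through pairing of its seed, bases 2 to 8, with a complementary stretch of the 3'UTR.

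The mature arms of miR-33 and the matching stretches in the 3'UTRs of both receptor genes are shown because the genotypes differ by this microRNA. The arms are from RefSeq on GRCm38.p6, where both arms were found, on the plus strand of chromosome 15 from 82198127 to 82198147 and from 82198167 to 82198188. The seed is in capitals, 5′ to 3′.
mmu-miR-33-5p: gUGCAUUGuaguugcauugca
mmu-miR-33-3p: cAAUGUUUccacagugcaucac
A match was counted where the 3'UTR strand held the complement of the seed (CAATGCA for the 5p arm, AAACATT for the 3p arm) or of bases 2 to 7 followed by A (AATGCAA and AACATTA). The 3'UTR of 819 bases of Adgrf1-201, the 1 annotated transcript of Adgrf1, held 0 matches for the 5p arm and 1 for the 3p arm. The 3'UTR of 3112 bases of Gprc5b-201 held 1 match for the 5p arm and 0 for the 3p arm. Both sites are given on the strand of their gene in GRCm38, 5′ to 3′, with the match in capitals. The Adgrf1 site is at chr17:43324223-43324252 on the plus strand and the Gprc5b site at chr7:118973741-118973770 on the minus strand.
Adgrf1 3'UTR: acatgccgacaAAACATTcatacacgaaat
Gprc5b 3'UTR: cctttaacctttAATGCAAatttttaaaag
Among the 11536 tested genes with an annotated 3'UTR, 16.2% held a match for the 5p arm and 25.8% held a match for the 3p arm. Among genes with a 3'UTR within 1.25 times the length of the Gprc5b one, a 5p match was present in 31.7%. For the length of the Adgrf1 3'UTR, 15.1% held a 3p match. A match of letters in a 3'UTR is a description of the sequence and says nothing on pairing in these livers.

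The libraries held between 12174352 and 18735791 estimated counts, and levels below are CPM, counts scaled by TMM to a common library size. In these libraries 3 counts, taken as the lowest level that a library can show, were between 0.149 and 0.255 CPM, and intervals and floors given here cover counting error only. Of 17810 genes, 12395 had enough counts to be tested, and 624 of these were called, which means a quasi-likelihood p from edgeR of less than 0.05 after Benjamini-Hochberg adjustment over all of them, 206 higher and 418 lower in HKO livers. Some livers stood apart from the rest. In HKO replicate 2, 58 genes reached 3 CPM and were at least 5-fold above every other liver, among them the bile duct epithelial genes Krt19 at 16.9 CPM (at most 1.07 elsewhere), Epcam at 16.5 CPM (at most 1.02), Muc1 at 22.4 CPM (at most 0.596) and Prom1 at 23.4 CPM (at most 1.24). Muc1 was at 0 in at least 1 of the other livers. The number of such genes was 20 in HKO replicate 3, 3 in WT replicate 1 and 0 in each of the other livers. The libraries carry order numbers that run through the HKO livers first and the WT livers next, so effects of this order and of genotype cannot be told apart. The labels do not tie a mouse to a litter, and p-values measure the spread between these livers.

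Adgrf1 was near the limit of detection in WT livers and was present in every HKO liver. The gene is listed on chromosome 17 from 43270347 to 43324406 (GRCm38, plus strand), and its longest coding transcript has 16 exons and encodes 908 residues. WT livers 1 to 4 held 6, 2, 6 and 2 counts. HKO livers 1 to 4 held 26, 40, 118 and 66 counts. Replicates 2 and 4 of the WT group were under the floor of 3 counts, whereas all 4 HKO libraries were over it. Scaled to depth, Adgrf1 was at 0.496, 0.139, 0.298 and 0.131 CPM in WT livers 1 to 4. In HKO livers 1 to 4 it was at 1.75, 3.08, 6.64 and 5.61 CPM. The genotypes did not overlap, and HKO replicate 1, the lowest of its group, was 3.54 times the highest WT liver.

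Mean Adgrf1 was 0.266 ± 0.171 CPM (SD, n = 4) in the WT group and 4.27 ± 2.25 CPM (SD, n = 4) in the HKO group. Its fitted log2 fold change was 4.0 with a standard error (SE) of 0.53, which depends on the prior count of the fit because the WT counts are low. On the counts themselves, 16 counts in all WT livers together stood against 250 in all HKO livers. Per count of depth the HKO level was 16.8 times the WT level, with a 95% counting interval from 10.2 to 29.9 that leaves out the spread between mice. Within the HKO group the level varied by 3.79-fold, and the 95% exact binomial interval of HKO replicate 1, from 1.15 to 2.57 CPM, did not reach that of HKO replicate 3, from 5.50 to 7.96 CPM. In order of fold change Adgrf1 was the 4th most increased of the genes tested. H2bc23, a histone H2B gene with fractional counts in all 8 livers, stood just above it at a log2 fold change of 4.05. Ugt2b38, a glucuronosyltransferase gene, stood just below at 3.99, carried by HKO replicate 3 alone.

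Gprc5b had the opposite pattern, with a low but clear level in every WT liver and almost no reads in HKO livers. The gene is listed on chromosome 7 from 118972040 to 118995211 (GRCm38, minus strand). It has 4 annotated transcripts, 2 of them coding, and the longest coding one has 3 exons and encodes 411 residues. Counts were 44, 87, 32 and 46 in WT livers 1 to 4. In HKO livers 1 to 4 the counts were 3, 6, 0 and 1. HKO replicates 1, 3 and 4 were at or under the floor, and HKO replicate 2, the liver with the bile duct genes, was the one above it. As levels, the WT livers were at 3.63, 6.07, 1.59 and 3.02 CPM. The HKO livers were at 0.202, 0.462, 0 and 0.0851 CPM. The genotypes did not overlap, and the lowest WT liver, replicate 3, was 3.44 times the highest HKO liver. The 0 of HKO replicate 3 allows a level of up to 0.169 CPM at 3 counts.

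Mean Gprc5b was 3.58 ± 1.87 CPM (SD, n = 4) in the WT group and 0.187 ± 0.201 CPM (SD, n = 4) in the HKO group. The fitted log2 fold change was -4.26 (SE 0.64), again with a low group that makes the fitted value depend on the prior count. Together the WT livers held 209 counts and the HKO livers 10. Relative to depth the WT level was 19.4 times the HKO level, with a 95% counting interval from 10.3 to 41.0. Gprc5b was the 4th most decreased gene. Rad51b, a gene of DNA repair by homologous recombination, was the next more decreased one at a log2 fold change of -4.32, and the gene model Gm32468 was the next less decreased one at -3.92.

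**Figure D1:**
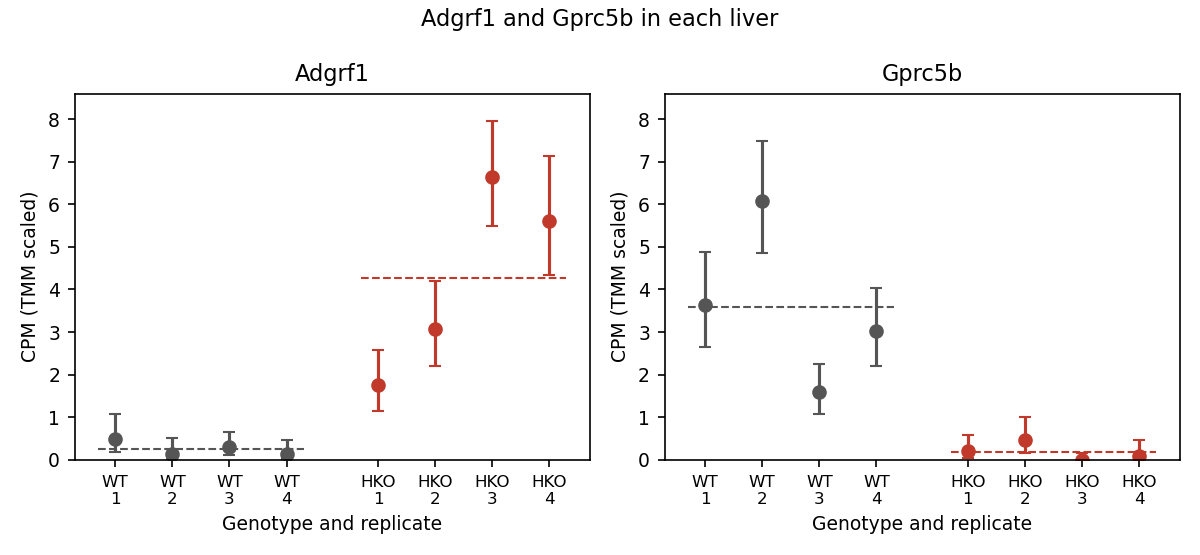
Adgrf1 (left) and Gprc5b (right) in each of the 8 livers, in CPM after TMM scaling on the vertical axis. Points are single livers, bars are 95% exact binomial intervals of the count (for the count of 0, up to 3 counts), and dashed lines are the means of 4 livers. Adgrf1 sits between 1.75 and 6.64 CPM in HKO livers and between 0.131 and 0.496 CPM in WT livers, and Gprc5b sits between 1.59 and 6.07 CPM in WT livers and at 0.462 CPM or below in HKO livers.

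Both genes were chosen on this contrast, and they passed the expression filter only through the genotype in which each is high. Adgrf1 reached 10 counts in 0 of 4 WT and 4 of 4 HKO livers, and Gprc5b reached them in 4 of 4 WT and 0 of 4 HKO livers. Both are among the 36 tested genes with a log2 fold change beyond 3 either way, 21 of them higher and 15 lower. The median over all genes tested was 0.01, and the middle 95% of genes lay between -0.996 and 0.64. In all, 659 genes (5.32% of those tested) had every HKO liver above every WT liver, and 898 genes (7.24%) had every HKO liver below every WT liver. These shares are given as background, since the choice of both receptors rested on the same values. Counts as low in WT livers (at most 6) and as high in HKO livers (at least 26) as those of Adgrf1 were found in 3 listed genes, which are Adgrf1 itself and the histone genes H2bc23 and H4bc24. The reverse pattern at the counts of Gprc5b, at most 6 in HKO and at least 32 in WT livers, was found in 1 gene, Gprc5b itself. These cutoffs are each receptor's own counts, on which it was chosen, so the numbers of genes are no measure of rarity.

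**Figure D2:**
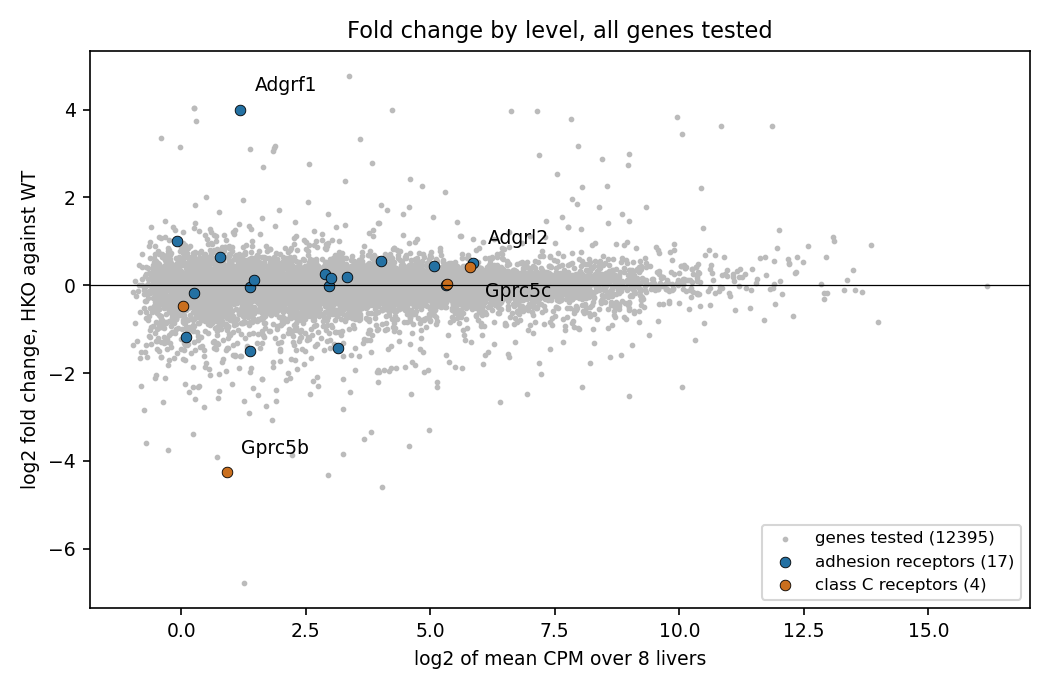
Log2 fold change of HKO against WT livers (vertical axis) by the log2 of the mean CPM over 8 livers (horizontal axis) for the 12395 genes tested, with 17 adhesion receptors in blue and 4 class C receptors in orange. Adgrf1 at 4.0 and Gprc5b at -4.26 lie far from the other receptors, and both have low mean levels.

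The values without the livers that stood apart are given as a description, since groups chosen for not overlapping cannot overlap when livers are removed. Without HKO replicate 2, Adgrf1 averaged 4.67 ± 2.58 CPM (SD, n = 3) in HKO livers and had a log2 fold change of 4.13 (SE 0.55). The same omission took Gprc5b to 0.0958 ± 0.102 CPM (SD, n = 3) in HKO livers and to a log2 fold change of -5.16 (SE 0.72), the largest move of either gene among the settings tried. Without HKO replicate 3, the log2 fold change was 3.67 for Adgrf1 and -3.74 for Gprc5b. With both of these livers set aside, Adgrf1 was between 1.75 and 5.61 CPM in the remaining HKO livers, and Gprc5b was between 0.0851 and 0.202 CPM.

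A ratio taken within a liver does not depend on how libraries are scaled, apart from the prior count, which is itself scaled to the library. On the log2 scale, the level of Adgrf1 over that of Gprc5b, each with a prior count of 2, was -2.58, -4.50, -2.0 and -3.57 in WT livers 1 to 4. It was 2.49, 2.43, 5.66 and 4.71 in HKO livers 1 to 4. Gprc5b thus exceeded Adgrf1 in every WT liver, and Adgrf1 exceeded Gprc5b in every HKO liver. The mean log2 ratio was -3.16 ± 1.10 (SD, n = 4) in WT and 3.82 ± 1.62 (SD, n = 4) in the HKO group, a difference of 6.98 (SE 0.98). The size of this difference depends on the prior count, and it was 8.30 with a prior count of 0.5.

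Both genes varied widely between livers of the genotype in which they were high. The coefficient of variation of Adgrf1 among HKO livers was 52.7%, where the median of 1721 genes within 1.5-fold of its HKO level was 20%. That of Gprc5b among WT livers was 52.2%, against a median of 20.1% for 1617 genes of like level. The liver with the most Gprc5b was WT replicate 2, and the one with the most Adgrf1 was HKO replicate 3, which held 0 counts of Gprc5b. HKO replicates 1 and 2 had the lower levels of Adgrf1 and the higher levels of Gprc5b within their group. Over the 8 livers the log2 levels of both genes had a Pearson r of -0.94, which mostly restates the opposite differences between genotypes. For deviations from the genotype means r was -0.56 (n = 8), a value that rests in part on counts of 0 to 6.

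Reads of both genes could be assigned with different certainty. Adgrf1 had whole counts in all 8 livers, and none of its 3809 stretches of 45 bases occurs in another annotated gene. For Gprc5b, whose counts were whole as well, 562 of 4669 such stretches are shared with Iqck, a gene of the opposite strand whose exon overlaps the 3' end of Gprc5b. Whether the counting used strand is not given in the sources used here. Iqck was at 0.126 ± 0.0296 CPM (SD, n = 4) in WT and 0.0169 ± 0.0337 CPM (SD, n = 4) in the HKO group, with at most 3 counts in a liver, and was not tested.

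Among adhesion receptors, a family with roles from vessel formation to immunity, 30 genes were listed, of which 26 are in the table and 17 were tested. With Adgrf1 set aside, because it was chosen on this contrast, 1 of 16 tested receptors was called higher and 0 lower, against 1.66% higher and 3.37% lower over all genes, and their median log2 fold change was 0.15. Adgrl2, a latrophilin, was at 47.6, 47.5, 51.6 and 44.1 CPM in WT livers 1 to 4 and at 71.8, 64.2, 69.7 and 66.5 CPM in HKO livers 1 to 4, with no overlap. It rose from 47.7 ± 3.06 CPM (SD, n = 4) to 68.0 ± 3.38 CPM (SD, n = 4), a log2 fold change of 0.51 (SE 0.08, edgeR adjusted p = 0.00433), and was called in 8 of 8 fits that each left out a liver. Adgrg2, a receptor best known from the epididymis, did not overlap between genotypes but was not called, at a log2 fold change of -1.49 (edgeR adjusted p = 0.0585). Without HKO replicate 2 it was the 1 adhesion receptor called lower, at -1.95 (edgeR adjusted p = 0.0182). In that fit 323 of 12534 genes were called lower.

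Within its own subfamily, the large difference of Adgrf1 stood next to a paralog with wide spread. Adgrf5, a receptor of endothelial and lung epithelial cells whose gene lies beside Adgrf1, was at 23.5, 21.5, 52.0 and 18.5 CPM in WT livers 1 to 4. Its HKO levels were 59.9, 24.7, 27.2 and 44.4 CPM. The genotypes overlapped, and the log2 fold change was 0.43 (SE 0.44, edgeR adjusted p = 0.661). The livers high in Adgrf5 were WT replicate 3 and HKO replicates 1 and 4, which also had the highest summed endothelial markers, whereas Adgrf1 was lowest of the HKO group in replicate 1. Adgrf2 and Adgrf4 are listed but had too few counts to be tested, and the level of Adgrf3 was not analysed here. The encoded Adgrf1 protein was identical to those of Adgrf2, Adgrf4, Adgrf5 and Adgrf3 at 41.6%, 38.4%, 33.4% and 28.7% of aligned residues.

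In class C, the closest measured relative of Gprc5b had a difference of the opposite sign. Of 22 class C receptors, 13 are in the table and 4 were tested. With Gprc5b set aside by the same reasoning, 1 of the remaining 3 was called higher and 0 lower (1.66% and 3.37% over all genes), and their median log2 fold change was 0.03. Gprc5c, whose protein shares 44.8% of aligned residues with that of Gprc5b, was at 44.2, 46.7, 52.5 and 48.3 CPM in WT livers 1 to 4 and at 56.2, 65.1, 63.5 and 69.4 CPM in HKO livers 1 to 4. It rose by a log2 fold change of 0.41 (SE 0.09, edgeR adjusted p = 0.0236), was called in 4 of 8 fits without a liver and was not called under total count scaling. Without HKO replicate 2 its adjusted p was 0.0552 from edgeR. Gprc5a is listed with too few counts to be tested, and the level of Gprc5d was not analysed here. The remaining tested receptors, Gabbr1 and Gabbr2, form the GABA-B receptor and were not called.

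**Figure D3:**
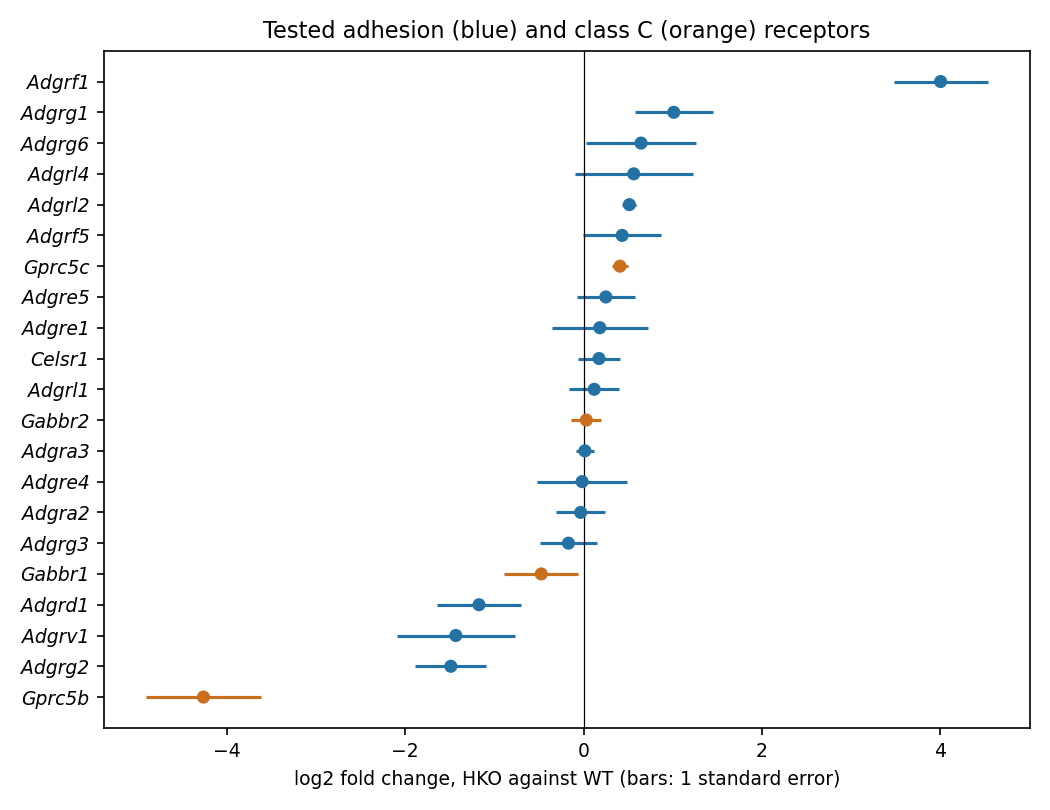
Log2 fold change of HKO against WT livers with 1 standard error for the 21 tested adhesion (blue) and class C (orange) receptors, in order of fold change. Adgrf1 at 4.0 and Gprc5b at -4.26 form both ends of the order, and Adgrl2 at 0.51 and Gprc5c at 0.41 have small standard errors.

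Levels of different genes were set side by side as CPM per kilobase of exon. On this scale Adgrf1 was at 0.0691 CPM per kilobase in WT livers, the lowest of the 21 tested receptors, and its values overlapped those of Adgrg6, the next one up. In HKO livers it was at 1.11 CPM per kilobase and took the 10th place, between Adgre5, an adhesion receptor of leukocytes, and Celsr1, a cadherin of planar cell polarity, with values that overlapped both. Gprc5b was at 0.773 CPM per kilobase in WT livers, also in the 10th place, between Adgre5 and Adgrg2 and overlapping both. In HKO livers it was the lowest at 0.0405 CPM per kilobase and overlapped Adgrd1, the next one up. Gprc5c and Gabbr2 held the 1st and 2nd places in both genotypes. Even where they were high, both genes were modestly expressed, since the HKO level of Adgrf1 exceeded that of 25.4% of the tested genes and the WT level of Gprc5b exceeded that of 18.5%.

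Among other receptors with Gpr symbols, 56 are listed and 15 were tested, of which 0 were called higher and 2 lower (median log2 fold change 0.05), against 1.66% and 3.37% over all genes. These are Gpr12, a receptor that raises cAMP, and Gpr39, a zinc-sensing receptor. Gpr12 fell by 2.58 on the log2 scale (SE 0.45, edgeR adjusted p = 0.00924), from 2.07 ± 0.878 CPM to 0.345 ± 0.175 CPM (SD, n = 4 each). Gpr39 fell by 1.28 (SE 0.17, edgeR adjusted p = 0.00209), from 7.30 ± 1.09 CPM to 3.00 ± 0.274 CPM (SD, n = 4 each). Both were called in 8 of 8 fits without a liver.

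Lists of genes from the pathways that these receptors are known to use held between 0 and 4 called genes each. The list of G proteins, adenylyl cyclases, phosphodiesterases, protein kinase A and cAMP-responsive factors, the route from Adgrf1, had 39 tested genes, of which 1 was called higher and 3 lower (median log2 fold change 0.01), which is 10.3% called either way against 5.03% over all genes. Crem, a cAMP-responsive transcription factor, rose by 0.48 (edgeR adjusted p = 0.028). The adenylyl cyclase Adcy6 fell by 0.66 (edgeR adjusted p = 0.0263), the cAMP phosphodiesterase Pde4d fell by 1.31 (edgeR adjusted p = 0.0488) and the protein kinase A catalytic subunit Prkaca fell by 0.31 (edgeR adjusted p = 0.0343), all on the log2 scale. These 4 genes did not overlap between genotypes. Of the 39 tested genes, 1 lay without overlap higher and 4 lower in HKO livers, called or not. Over all genes tested these shares were 5.32% and 7.24%. Pde4d was called in 1 and the other called genes in 3 of 8 fits without a liver. Gnas, the Gs alpha subunit, was at 374 ± 44.7 CPM (SD, n = 4) in WT and 321 ± 11.1 CPM (SD, n = 4) in the HKO group, a log2 fold change of -0.22 that did not pass the test (edgeR adjusted p = 0.222).

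The list for N-acylethanolamines, the lipid class of synaptamide, holds enzymes of synthesis and breakdown, binding proteins and receptors. Of its 10 tested genes 0 were called either way (median log2 fold change -0.03), against 5.03% over all genes. Of the desaturases, 4 were tested and 0 were called, against the same share. Scd1 was at 28470, 25864, 14953 and 14295 CPM in WT livers 1 to 4 and at 21759, 8424, 3922 and 12364 CPM in HKO livers 1 to 4. The genotypes overlapped, and its log2 fold change of -0.85 had a standard error of 0.52 (edgeR adjusted p = 0.437). The HKO liver with the most Adgrf1, replicate 3, had the least Scd1 and replicate 1, with the least Adgrf1, the most. The other HKO livers went the other way, since replicate 4 had more of both genes than replicate 2. This is a description of 4 livers.

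On the side of Gprc5b, 12 genes of Src-family kinases and lipid rafts were tested, with 1 called higher and 1 lower (median log2 fold change 0.08), or 16.7% called against 5.03% over all genes. Lyn, a Src-family kinase, rose by 0.41 (edgeR adjusted p = 0.03) and the raft protein gene Flot2 fell by 0.40 (edgeR adjusted p = 0.041). Lyn was called in 3 and Flot2 in 1 of 8 fits without a liver, and Lyn has fractional counts in all 8 livers. Fyn, the kinase that Gprc5b binds, was at 4.90 ± 2.30 CPM (SD, n = 4) in WT and 6.15 ± 1.98 CPM (SD, n = 4) in the HKO group, a log2 fold change of 0.31 with overlap (edgeR adjusted p = 0.669). Retinoid genes, listed because retinoic acid induces the family of Gprc5b, had 23 tested members, with 0 called higher and 2 lower (median log2 fold change -0.16), or 8.70% called against the same 5.03%. Aldh1a1, an enzyme of retinoic acid synthesis, fell by 0.57 (edgeR adjusted p = 0.0165), and Tgm2, a retinoid-responsive transglutaminase, fell by 0.48 (edgeR adjusted p = 0.0407). Aldh1a1 was called in 6 and Tgm2 in 2 of 8 fits without a liver, and neither Flot2 nor Tgm2 was called without HKO replicate 2.

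Differences of neighbouring genes were smaller than those of both receptors, which follows largely from the choice of the receptors for large differences. Within 500 kb of Adgrf1, 10 genes are listed and 7 were tested, with a median log2 fold change of -0.11. Of these 1 was called, where 5.03% of all genes tested were called either way. The called one is Rcan2, a regulator of calcineurin 477 kb away, which fell by 1.39 (SE 0.15, edgeR adjusted p = 0.000879) from 26.7 ± 3.26 CPM to 10.2 ± 2.24 CPM (SD, n = 4 each) and was called in 8 of 8 fits without a liver. The nearest tested genes were Adgrf5 at 36.0 kb and, on the other side, the death receptor gene Tnfrsf21 at 181 kb with a log2 fold change of -0.11 (edgeR adjusted p = 0.785). Around Gprc5b, 13 genes are listed and 8 were tested, with a median of -0.05 and 0 called, against the same 5.03%. The nearest tested ones were Knop1 at 116 kb with a log2 fold change of -0.06 (edgeR adjusted p = 0.764) and, on the other side, Pdilt at 491 kb with 0.61 (edgeR adjusted p = 0.20). Tmc5, a neighbour too low to be tested, was at 4.39 CPM in HKO replicate 2 and at 0 in the other 7 livers.

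**Figure D4:**
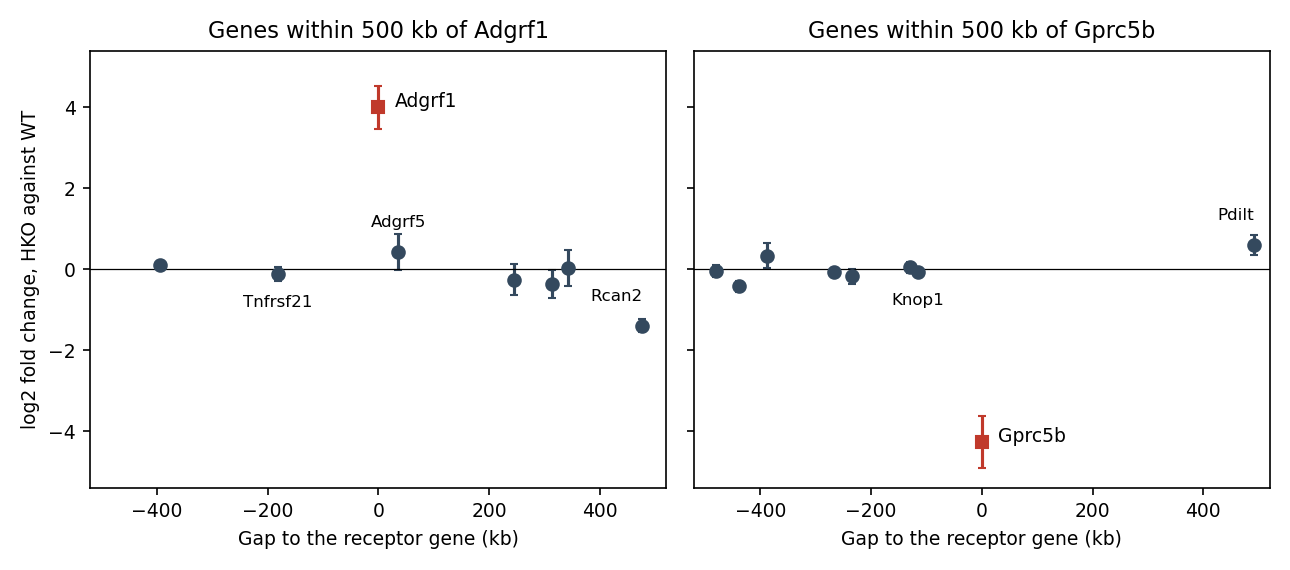
Log2 fold change of HKO against WT livers with 1 standard error (vertical axis) for tested genes within 500 kb of Adgrf1 (left) and Gprc5b (right), by the gap to the receptor gene in kb (horizontal axis). The neighbours of Adgrf1 range from -1.39 (Rcan2) to 0.43 (Adgrf5) and those of Gprc5b from -0.42 to 0.61 (Pdilt). The receptors, chosen for their large differences, are drawn as squares at 4.0 and -4.26.

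Markers of liver cell types were compared because these are bulk samples, in which fewer cells of a type and less RNA per cell cannot be told apart. The hepatocyte list was present at 88098 to 120905 CPM summed in WT and 80201 to 136338 CPM in HKO livers, and 5 of its 9 genes (Cps1, Serpina1a, Ass1, Hnf4a and Tat) were called higher and 0 lower, with a median log2 fold change of 0.49, where 1.66% and 3.37% of all genes were called higher and lower. Of these 5, Cps1 was called in 8, Tat in 7, Serpina1a in 3, Ass1 in 2 and Hnf4a in 1 of 8 fits without a liver, and 3 of the 9 were called without HKO replicate 2. Against the same shares, the stellate list had 11 tested genes, of which 0 were called higher and 2 lower (median -0.05), the collagen genes Col1a1, which fell by 2.81, and Col3a1, which fell by 1.87 on the log2 scale. Its sum was 463 to 605 CPM in WT and 376 to 535 CPM in HKO livers. Of 9 tested macrophage genes, 0 were called higher and 1 lower (median -0.03). The called one is Gpnmb, which fell by 3.60 on the log2 scale, from 1.14 ± 0.352 CPM to 0.0903 ± 0.0767 CPM (SD, n = 4 each). Every HKO liver was under the floor of 3 counts for Gpnmb, so the size of its fall depends on the prior count. The summed level of the macrophage list overlapped at 87.9 to 231 CPM in WT and 64.5 to 215 CPM in HKO livers. The endothelial list had 10 tested genes and 0 called (median 0.48, and 0.17 to 0.93 without 1 liver), with sums of 77.5 to 243 CPM in WT and 123 to 278 CPM in HKO livers.

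The cholangiocyte list had 5 of 11 genes tested and 0 called, against 5.03% called either way over all genes. Its median log2 fold change was 0.61, ran from 0.28 without HKO replicate 2 to 1.92 without HKO replicate 1, and was 2.37 with no expression filter and -0.0015 with at least 10 counts in every liver. Its sum was 55.4 to 67.9 CPM in WT livers and 42.8, 174, 69.1 and 49.9 CPM in HKO livers 1 to 4. HKO replicate 2, the highest of these, ranked below replicates 3 and 4 for Adgrf1 and was the highest HKO liver for Gprc5b, which was at 0.462 CPM there. Erythroid genes had 5 tested and 0 called (median -1.88), against the same share. Their sum was 61.9 to 263 CPM in WT and 65.9 to 105 CPM in HKO livers. Of the adipocyte markers 1 was tested and was not called, at sums of 0.894 to 7.04 CPM in WT and 0.0851 to 5.06 CPM in HKO livers. Lymphocyte, pancreatic acinar and kidney lists had 0 tested genes and summed to at most 4.18, 0.766 and 0.077 CPM in any liver. The summed levels overlapped between the genotypes on each list, but a sum follows the most abundant genes of its list. Single markers, among them Cps1, Tat, Col1a1 and Col3a1, did not overlap. The part of cell composition in the levels of either receptor was not tested.

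**Figure D5:**
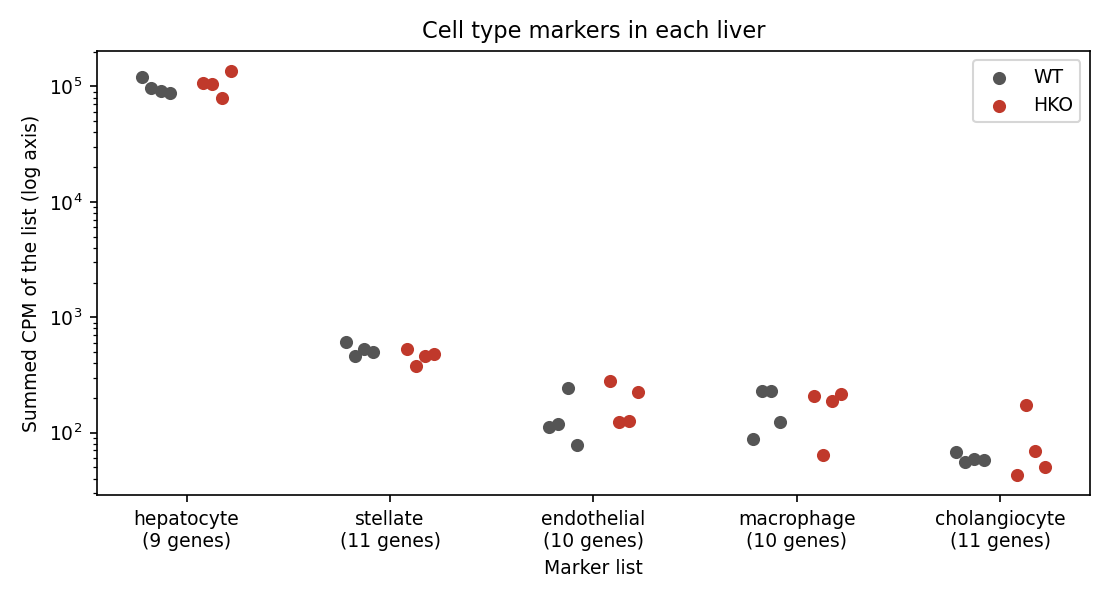
Summed CPM of 5 marker lists (log axis) in each of 4 WT and 4 HKO livers, drawn in the order of replicates 1 to 4. The genotypes overlap on each list, and the HKO liver at 174 CPM on the cholangiocyte list is replicate 2.

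The genes most like each receptor over the livers were ranked by Pearson r of log2 CPM over 8 livers, among 11876 genes with a mean of at least 1 CPM. Since each receptor separates the genotypes, r rests largely on that separation, and 88 genes exceeded an r of 0.9 with Adgrf1 and 293 with Gprc5b. Genes chosen by this r tend to differ between the genotypes, so their fold changes and calls are a description and no separate result. The most alike to Adgrf1 were Phtf2 (r = 0.975), Enho (0.965), Ccdc127 (0.964), Ddx52 (0.964) and F11 (0.963). Enho, which encodes the secreted peptide adropin, was the one of these with a fold change near that of Adgrf1, rising from 0.745 ± 0.234 CPM to 6.40 ± 2.47 CPM (SD, n = 4 each), a log2 fold change of 3.06 (SE 0.33, edgeR adjusted p = 0.000861). Its HKO levels were 4.58, 4.31, 9.57 and 7.15 CPM in replicates 1 to 4, with replicates 3 and 4 highest as for Adgrf1. F11, coagulation factor XI, rose by 0.83 (edgeR adjusted p = 0.00953), and Phtf2, Ccdc127 and Ddx52, with log2 fold changes of 0.19, 0.19 and 0.29, were not called.

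For Gprc5b the most alike genes were Col15a1 (r = 0.993), Capns1 (0.990), Rnpepl1 (0.987), Tnfrsf19 (0.986) and Mogat1 (0.986). All 5 were called lower, against 3.37% over all genes, which the choice by r favours. Col15a1, a collagen of basement membranes, was at 7.52, 7.81, 5.76 and 7.49 CPM in WT livers 1 to 4 and at 3.51, 4.54, 2.81 and 3.23 CPM in HKO livers 1 to 4, and fell by 1.02 (edgeR adjusted p = 0.0109). Mogat1, a monoacylglycerol acyltransferase of triglyceride synthesis, was at 8.26, 15.3, 5.12 and 6.50 CPM in WT livers and at 0.742, 0.924, 0.394 and 0.34 CPM in HKO livers 1 to 4. It fell by 3.86 (SE 0.43, edgeR adjusted p = 0.00182). As for Gprc5b, replicate 2 was the highest liver of both genotypes and WT replicate 3 the lowest WT liver in Col15a1 and Mogat1. Tnfrsf19, a receptor of the tumour necrosis factor family, fell by 1.43, Rnpepl1, an aminopeptidase-like gene, by 0.55 and Capns1, the small calpain subunit, by 0.37, with edgeR adjusted p of 0.00207, 0.012 and 0.0262.

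Deviations from the genotype mean leave out the difference between genotypes. On these, the genes most like Adgrf1 were Poglut2, Bri3bp, Thrap3, Rbm10 and Itpk1, with r from 0.966 down to 0.941 (n = 8 livers), and 24 genes exceeded 0.9. For Gprc5b they were Extl2, Gnl1, Arrdc2, Col15a1 and Cops7a, with r from 0.975 down to 0.951, and 49 genes exceeded 0.9. Col15a1 was thus the gene named for Gprc5b by both measures, and no gene was named by both for Adgrf1. These r describe 8 libraries that differ in depth and composition, and each is the highest of 11876.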

How the data were processed

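Livers of 4 WT and 4 HKO mice were grouped by their labels. The authors aligned reads with STAR and deposited estimated counts per gene from Partek's expectation-maximization method, before normalization. Versions are not given in the sources used here. The labels name both rRNA depletion and a small RNA kit, so the library type is uncertain. Of the deposited values 80.3% are whole, and 0 value columns were left unmapped.

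Counts were rounded and tested over 12395 genes with edgeR 4.0.16 in R 4.3.3 (TMM, default filter with minimum count 10, robust quasi-likelihood, Benjamini-Hochberg, threshold 0.05). The edgeR 4 method was kept after its count of calls and that of the legacy method had both been seen. Log2 CPM used a prior count of 2. The low depth of both receptors limits precision to the counting intervals given. Also run were limma-voom (limma 3.58.1), DESeq2 1.42.0, other scalings and filters, the replicate number as a block and each liver left out. Other steps used Python 3.11.15, numpy 2.4.6, pandas 2.3.3, scipy 1.17.1, Biopython 1.88 and matplotlib 3.10.9, and the models were tested on simulated data. Exon lengths, 3'UTRs, overlaps and protein identities (aligned translations) came from GENCODE vM21 on GRCm38. The listed stop lies 1 base past the RefSeq end in 65.3% of genes, so ends are given as stop minus 1.

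The receptors and the gene lists were chosen with earlier results of these data known. Named besides the receptors were called genes of the lists, tested members of the Adgrf and Gprc5 subfamilies, Gnas, Fyn and Scd1, called and nearest tested genes within 500 kb, called Gpr-numbered receptors, the genes next in order of fold change, and the 5 most alike by each measure. The genes of HKO replicate 2, Adgrg2, Iqck, Tmc5, H4bc24 and the adipocyte genes were named, and the lists were also counted without both receptors, after their values were seen.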

Additional observations from a re-analysis of the deposited data

Results flagged for a closer look

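Of 156 groups of 4 livers (the genes named here in each genotype other than the adipocyte genes, the marker sums, the library totals and the ratio of both receptors), 12 held a liver that lay well outside the range of its group, and about 1 in 20 would do so by chance. Neither Adgrf1 nor Gprc5b was among them. HKO replicate 2 accounts for 5, which were named because that liver was high in them. Krt19 was at 16.9 CPM there and at most 0.405 CPM in the other HKO livers, Epcam at 16.5 and at most 1.02 CPM, Muc1 at 22.4 and at most 0.596 CPM, Prom1 at 23.4 and at most 1.21 CPM, and Tmc5, a neighbour of Gprc5b, at 4.39 and 0 CPM. Iqck, whose exon overlaps Gprc5b, was at 0.0674 CPM in HKO replicate 1, which is under the floor, and at 0 in the other HKO livers. Adgrf5, the paralog beside Adgrf1, was at 52.0 CPM in WT replicate 3 with its group otherwise at 18.5 to 23.5 CPM. Col15a1, the gene most like Gprc5b, was at 5.76 CPM in WT replicate 3 against 7.49 to 7.81 CPM. Hnf4a, a hepatocyte transcription factor, was at 471 CPM in WT replicate 3 against 435 to 441 CPM, and Celsr1 at 8.20 CPM in that liver against 7.29 to 7.39 CPM. Ddx52 was at 23.6 CPM in WT replicate 2 against 25 to 25.2 CPM. Ugt2b38, next to Adgrf1 in the order of fold change, was at 136 CPM in HKO replicate 3 against 0.924 to 3.15 CPM in the other HKO livers.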

How the results depend on the processing

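The log2 fold change of Adgrf1 kept its direction under the 16 alternatives that gave a value, from 3.67 to 4.38, and so did that of Gprc5b, from -5.16 to -3.74. A filter of at least 10 counts in every liver removed both genes. With each liver left out, the log2 ratio of Adgrf1 to Gprc5b differed between genotypes by 6.37 to 7.45. With the replicate number as a block the log2 fold changes were 3.98 for Adgrf1 and -4.30 for Gprc5b, and 456 genes were called. Over all genes tested, livers of the same number did not deviate together (correlations from -0.15 to 0.01). Whether the numbers pair livers cannot be told from this. With the block the SE of Gprc5b was 0.44 in place of 0.64, and that of Adgrf1 was 0.50 in place of 0.53. Under the block Prkaca, Crem, Lyn, Flot2, Tgm2, Hnf4a and Col3a1 were not called. The 624 calls became 1014 with DESeq2 (385 higher, 629 lower) and 212 to 598 without 1 liver, with 272 without WT replicate 1, 212 without WT replicate 2 and 364 without HKO replicate 4. Total count scaling gave 119 higher and 621 lower in place of 206 and 418, and moved the median of all genes by -0.09. Gprc5c, Crem, Lyn and Hnf4a were not called under it, Pde4d, Prkaca and Flot2 were not called without the expression filter, and Tgm2 was not called by limma-voom. Ugt2b38 went to a log2 fold change of -0.12 without HKO replicate 3, and its values without 1 liver ran from -0.12 to 4.39. The cause of these moves was not tested. Depth limits the levels of Adgrf1 in WT and of Gprc5b in HKO livers, most of them within a few counts of the floor.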
